A study of Homo sapiens with 6 samples.

Results

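The 10 genes described here carry monocarboxylates across the cell membrane or sense fatty and hydroxy acids outside the cell. They were chosen by gene symbol from the 24462 symbols in the count tables. On the transport side stood 5 genes, SLC16A1, SLC16A3, SLC16A4, SLC5A8 and BSG, and the receptors were FFAR2, FFAR3, FFAR4, HCAR2 and OR51E1. The cells were LS 174T, a human colorectal adenocarcinoma line used as a goblet cell model, and they were compared after 4 h in 4 mM propionate (n = 3 libraries) and without treatment (control, n = 3 libraries). The series title ties propionate to the mucin gene MUC2 by way of propionate metabolism and the hypoxia-inducible factor HIF-2α. All libraries came from this single line, which stands in for goblet cells but is a tumour line grown without the other cells of the colon. No label states that replicate libraries are separate cultures, so all p-values refer to library-to-library spread, part or all of which could be technical.

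Propionate is one of the short-chain fatty acids released when gut bacteria ferment fiber. As an anion it crosses membranes slowly, and cells take it up on carriers. The monocarboxylate transporters of the SLC16 family move lactate, pyruvate, ketone bodies and short-chain fatty acids together with a proton, and several of them need the glycoprotein basigin, the product of BSG, to reach the cell surface. SLC5A8 moves the same anions with sodium. Short-chain fatty acids are also read from outside the cell by G protein-coupled receptors, of which FFAR2, FFAR3 and HCAR2 are the best known in the colon.

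Library totals ran from 11645597 to 12746170 reads with propionate and from 11603288 to 11921005 reads in control, so that 3 reads were worth 0.235 to 0.259 CPM (the reads of a gene scaled to its library's total). All 10 markers fixed for goblet cells and colon epithelium passed the filter on low counts. Of the 4 endothelial markers VWF, CDH5 and KDR had no read, and PECAM1 had none with propionate and 5 in control. The fibroblast markers DCN and PDGFRA had no read, COL1A1 had 137 with propionate and 31 in control, COL3A1 had 18 with propionate and 37 in control, LUM had 84 with propionate and 78 in control, and COL1A2 had 0 with propionate and 1 in control. The summed level of the 6 fibroblast markers ran from 4.91 to 7.21 CPM with propionate and from 2.91 to 6.38 CPM in control. The 8 immune markers, of which 7 had a read, summed to between 25.1 and 29.5 CPM with propionate and between 32.7 and 36.4 CPM in control, with CD3E at 0 and PTPRC at 3 reads with propionate and 0 in control. The part of these shifts in the results below was not tested.

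Of the 10 genes, 6 had enough reads to be tested, 3 of these rose with propionate, 1 fell and 2 did not pass the test. SLC16A3, a lactate exporter, showed the largest rise, the long-chain fatty acid receptor gene FFAR4 and the carrier gene SLC16A1 rose less, and the receptor gene OR51E1 fell. The test was edgeR's quasi-likelihood test with Benjamini-Hochberg adjustment over all 13605 genes tested, at an adjusted p under 0.05. Across those genes 34.2% were called, 17.2% as higher and 17% as lower, so a call by itself does not set these genes apart. The libraries of the groups did not overlap for the same 4 genes, as for 45.2% of all tested genes. With the replicate number as a block the same 4 members were called, against 44.5% of all tested genes (21.9% as higher), and with the GC trend removed as well, against 43.5%. Their median log2 fold change was 0.17 over the 6 tested genes and -0.01 over all tested genes. Of the 4 untested genes, SLC5A8, FFAR2 and HCAR2 had 19 reads or fewer over all libraries, and FFAR3 had none.

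**Figure D1:**
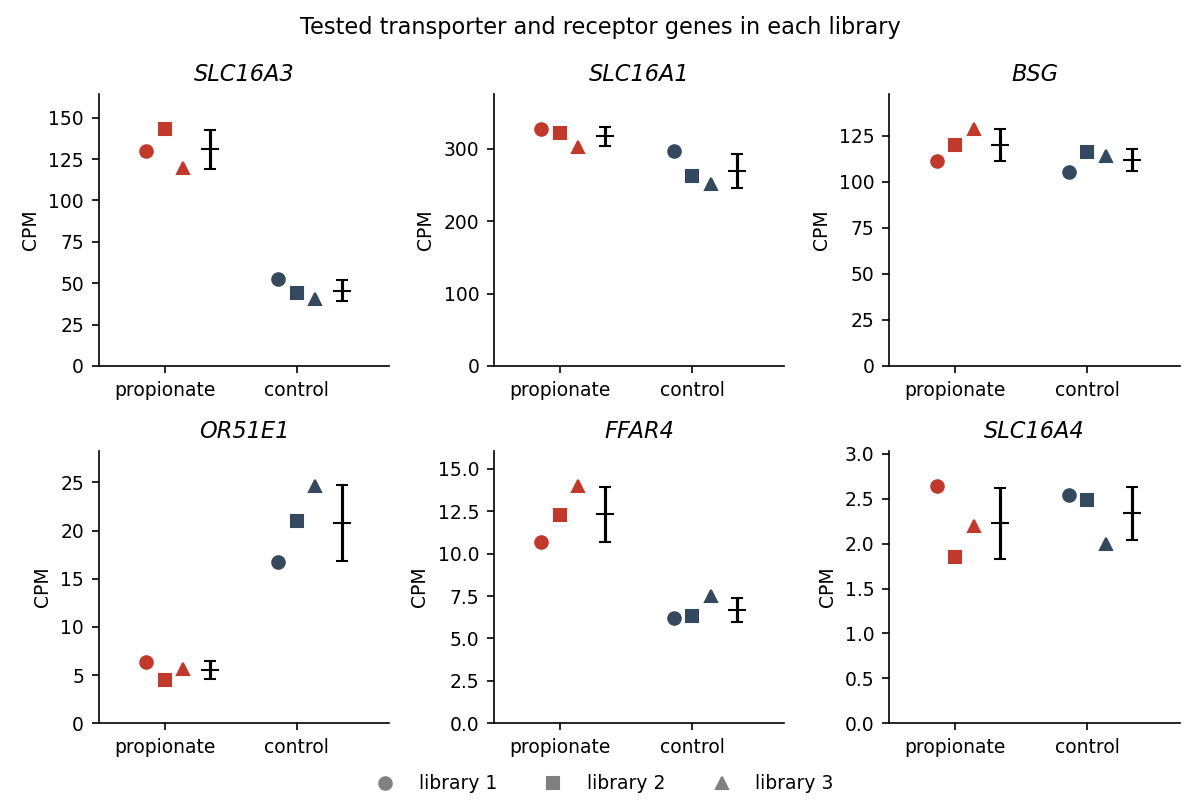
Level of the 6 tested genes in each library, in CPM, on linear axes that start at 0 and differ between panels. Symbols are libraries, with propionate left of control, and bars give the mean and SD (n = 3 each). SLC16A3, SLC16A1 and FFAR4 were higher in every propionate library than in any control, OR51E1 was lower, and BSG and SLC16A4 overlapped.

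**Figure D2:**
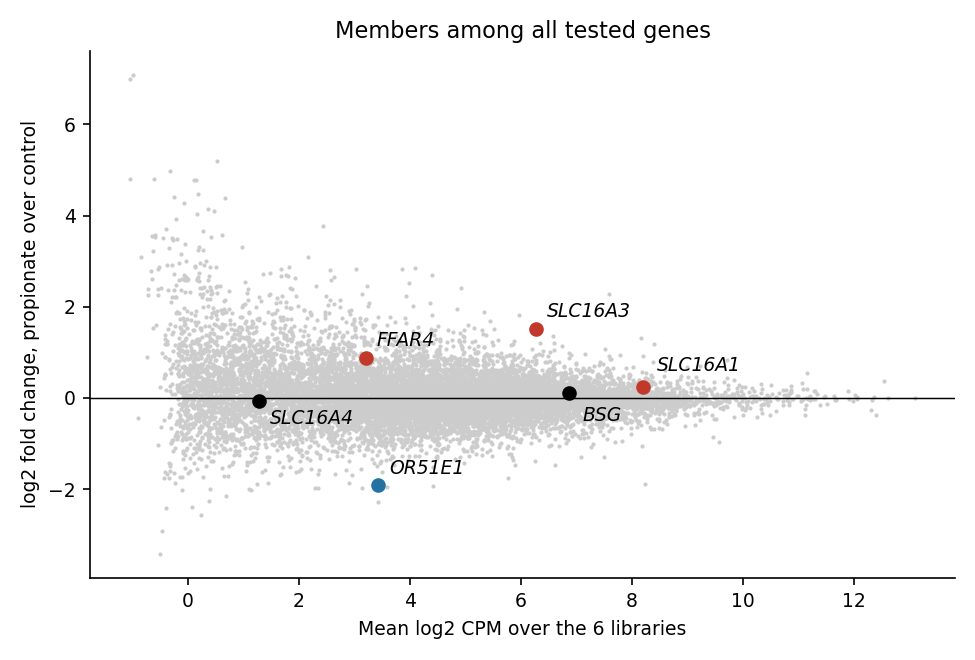
Each dot is 1 of the 13605 tested genes, by its mean log2 CPM over the 6 libraries and its log2 fold change of propionate over control. Red marks members called higher, blue called lower and black not called. SLC16A3 lies above 97.7% of the genes and OR51E1 near the lower edge of the cloud.

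SLC16A3 encodes MCT4, the low-affinity carrier through which glycolytic cells release lactate. It had 1674, 1781 and 1414 reads in propionate libraries 1 to 3, against 602, 512 and 483 reads in control libraries 1 to 3. On the CPM scale these were 129.9, 143.1 and 119.7 with propionate and 52.6, 43.8 and 40.3 in control. Every propionate library stood far above every control. Its log2 fold change of propionate over control was 1.52 (SE 0.105, adjusted p = 5.98e-09), a 2.87-fold rise, and it was larger than that of 97.7% of the tested genes. Over 17 alternatives the log2 fold change ran from 1.29 to 1.64, and the call held in each (adjusted p from 2.23e-50 to 2.68e-07). In the GENCODE release 29 annotation, 482 of the 2480 bases that end the protein-coding transcripts of SLC16A3 are also exons of CSNK1D, a kinase gene on the opposite strand. CSNK1D was at 121.9 ± 5.66 CPM with propionate and 102.9 ± 1.35 CPM in control (mean ± SD, n = 3 each, log2 fold change 0.24, adjusted p = 0.0255). Whether reads were counted by strand is not known, and the part of CSNK1D reads in the SLC16A3 counts was not tested.

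SLC16A3 is known as a target of hypoxia-inducible factors, which bind the core motif ACGTG or GCGTG, and the series title names HIF-2α. The stretches before the transcription starts are therefore shown for the gene that rose most, for its surface partner BSG, which was not called, and for OR51E1, which fell. Each is the 250 bases before a start in RefSeq (build GRCh38.p14, 5′ to 3′ on the plus strand, on which these 3 genes lie), and capitals mark ACGTG or its complement CACGT.
SLC16A3, chr17:82228792-82229041, plus strand: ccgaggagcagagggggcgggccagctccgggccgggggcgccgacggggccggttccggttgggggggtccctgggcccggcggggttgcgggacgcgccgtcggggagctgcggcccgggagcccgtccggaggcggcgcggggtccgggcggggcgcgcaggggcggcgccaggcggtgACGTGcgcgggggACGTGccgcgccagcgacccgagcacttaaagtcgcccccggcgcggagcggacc
BSG, chr19:572346-572595, plus strand: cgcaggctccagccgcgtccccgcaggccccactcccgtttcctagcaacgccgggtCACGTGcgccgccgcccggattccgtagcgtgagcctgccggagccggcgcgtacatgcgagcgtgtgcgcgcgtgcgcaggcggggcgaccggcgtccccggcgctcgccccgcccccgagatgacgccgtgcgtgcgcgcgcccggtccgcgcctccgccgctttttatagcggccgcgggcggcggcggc
OR51E1, chr11:4643732-4643981, plus strand: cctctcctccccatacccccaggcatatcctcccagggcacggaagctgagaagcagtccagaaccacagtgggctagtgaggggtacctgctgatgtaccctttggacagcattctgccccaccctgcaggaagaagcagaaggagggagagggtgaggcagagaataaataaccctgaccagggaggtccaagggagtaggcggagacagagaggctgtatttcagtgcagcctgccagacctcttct
The SLC16A3 stretch held ACGTG at 68 and 55 bases before the start. The BSG stretch held CACGTG, which holds ACGTG on both strands, with the matches beginning 193 and 192 bases before the start. No match was found in the OR51E1 window. ACGTG on either strand was present in 18.5% of the 35116 RefSeq windows of this length. That share is for a single window and was not matched for GC content, and a gene with several windows has more places for a match. RefSeq gives 5 windows for SLC16A3 and 2 for BSG, and the others of these genes held no match. Among members whose windows are not printed, FFAR2, with 3 reads in each group, held CACGTG. Its matches began 47 and 46 bases before the start. The windows of FFAR4, which was called higher, and of SLC16A4 and SLC5A8 held no match. The GC content of the printed windows was 83.2% for SLC16A3, 78.4% for BSG and 57.6% for OR51E1. The motif GGGCGG or its complement CCGCCC, which Sp1-type factors bind, occurred 3 times in the SLC16A3 window, 3 times in the BSG window and not in that of OR51E1, without overlapping ACGTG, and was present in 42.6% of all windows. These are matches of letters and were not tested as binding sites. GCGTG was not searched for, so a window without a match can still hold it.

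SLC16A1 encodes MCT1, the high-affinity carrier through which colon cells take up butyrate and other short-chain fatty acids. It had 4219, 3999 and 3575 reads in propionate libraries 1 to 3, against 3389, 3059 and 3011 reads in control libraries 1 to 3. Scaled to CPM, the propionate libraries were at 327.3, 321.4 and 302.5 and the controls at 296.4, 261.8 and 250.9. The lowest propionate library stood just above the highest control. On the log2 scale the rise was 0.23 (SE 0.0829, adjusted p = 0.0351), or 1.18-fold. This call did not hold without propionate library 1 (adjusted p = 0.12), propionate library 2 (adjusted p = 0.0851), control library 2 (adjusted p = 0.11) or control library 3 (adjusted p = 0.139), and the adjusted p ran from 3.82e-06 to 0.139 over 17 alternatives. The antisense gene SLC16A1-AS1, which shares 175 exon bases with SLC16A1, had 14, 25 and 12 reads with propionate and 6, 3 and 21 in control, and these groups overlapped.

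The balance between the exporter and the uptake carrier moved with SLC16A3. For each read of SLC16A1 there were 0.397, 0.445 and 0.396 reads of SLC16A3 in propionate libraries 1 to 3, against 0.178, 0.167 and 0.160 in control libraries 1 to 3. The log2 ratio averaged -1.28 ± 0.0976 with propionate and -2.57 ± 0.0739 in control (SD, n = 3 each), a difference of 1.29. The ratio of SLC16A3 to BSG averaged 1.10 ± 0.145 with propionate and 0.411 ± 0.0792 in control, a difference of 1.43 on the log2 scale. For both ratios the groups did not overlap and the exact two-sided permutation p was 0.1, before and after adjustment over the 2 ratios, which is the smallest value that 3 against 3 libraries can give. Such a ratio uses no scaling factor, and its size does not say which transcript was more abundant.

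**Figure D3:**
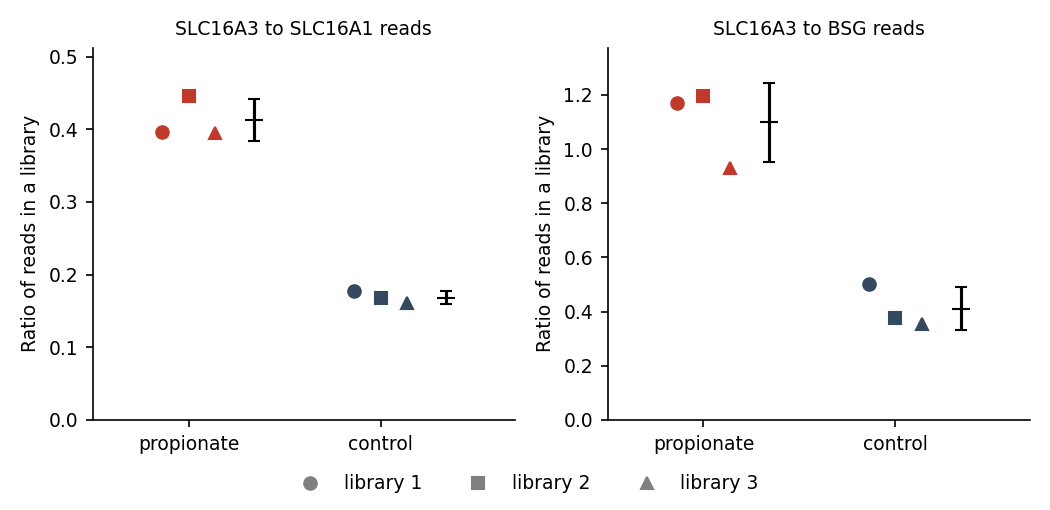
Reads of SLC16A3 for each read of SLC16A1 (left) and of BSG (right) in the same library, with propionate left of control and bars for the mean and SD (n = 3 each). Both ratios were higher in each propionate library than in any control.

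BSG encodes basigin, the chaperone that brings MCT1 and MCT4 to the membrane. It had 1432, 1491 and 1519 reads in propionate libraries 1 to 3, against 1202, 1356 and 1368 in control libraries 1 to 3. The groups overlapped after scaling, at 119.8 ± 8.73 CPM with propionate and 111.7 ± 5.81 CPM in control (mean ± SD, n = 3 each). The log2 fold change was 0.10 with a 95% interval of -0.08 to 0.28 (adjusted p = 0.398). A rise or fall within that interval cannot be told from none. The sign turned to -0.13 when the GC trend of each library was removed, where the gene was not called either (adjusted p = 0.27).

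SLC16A4 encodes MCT5, a family member whose substrates are less well known. It was read 34, 23 and 26 times with propionate and 29, 29 and 24 times in control. The groups overlapped, at 2.23 ± 0.395 CPM with propionate and 2.34 ± 0.295 CPM in control (mean ± SD, n = 3 each), and the log2 fold change was -0.07 with a 95% interval of -0.75 to 0.62 (adjusted p = 0.898). A change of either sign within that interval cannot be told from none. SLC5A8, the sodium-coupled carrier that is often silenced in colon cancer, had 1 read in propionate library 1 and none in the other 5 libraries.

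OR51E1 is an olfactory receptor gene expressed outside the nose, whose product responds to short- and medium-chain fatty acids. It had 82, 56 and 67 reads in propionate libraries 1 to 3, against 191, 245 and 295 reads in control libraries 1 to 3. On the CPM scale these were 6.36, 4.50 and 5.67 with propionate and 16.7, 21.0 and 24.6 in control. The highest propionate library was far below the lowest control. In the edgeR fit the log2 fold change came to -1.91 (SE 0.184, adjusted p = 2.85e-07), a 3.76-fold fall, which placed the gene 13588th of 13605 from the highest to the lowest change. The call held under all 17 alternatives, with log2 fold changes between -2.05 and -1.77 (adjusted p from 3.14e-25 to 4.4e-06). None of the 50-base stretches in the last 500 bases of its transcript occurs in a transcript of another gene. OR51E2, a neighbouring receptor gene that also responds to short-chain fatty acids, had 0, 2 and 1 reads with propionate and 6, 0 and 4 in control, too few to test.

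FFAR4 encodes GPR120, a receptor for long-chain and not short-chain fatty acids. It had 138, 153 and 165 reads in propionate libraries 1 to 3, against 71, 74 and 90 reads in control libraries 1 to 3. As CPM these came to 10.7, 12.3 and 13.96 with propionate and 6.21, 6.33 and 7.50 in control. All propionate libraries lay above all controls. The fitted log2 fold change came to 0.88 (SE 0.178, adjusted p = 0.000762), a 1.84-fold rise, and it kept its call under 17 alternatives with log2 fold changes from 0.78 to 0.97 (adjusted p from 4.14e-05 to 0.00641). In direction it differed from OR51E1 in the same libraries.

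FFAR2 and FFAR3, the receptors best known for sensing propionate, had few reads or none, and HCAR2 had few. FFAR3 (GPR41) had 0 reads in all 6 libraries, which allows a level of up to 0.259 CPM in the shallowest of them. FFAR2 (GPR43) had 3 reads in propionate library 1 and none in the other propionate libraries, and 3 reads in control library 1 and none in the other controls. HCAR2 (GPR109A), the receptor for niacin, butyrate and ketone bodies, had 2, 7 and 7 reads with propionate and 0, 0 and 3 in control. The ratio of its summed reads over the library totals was 5.10 with an exact binomial 95% interval of 1.46 to 27.3, which covers counting error only. With no filter on low counts HCAR2 was not called (edgeR adjusted p = 0.176). The other hydroxyacid receptor of near-identical sequence, HCAR3, had 0, 2 and 0 reads with propionate and none in control. Of the 50-base stretches that end the transcripts of HCAR2, 35.5% also occur in HCAR3, and of those of FFAR3 69.6% occur in GPR42. Reads from these stretches cannot be assigned to 1 gene. GPR42 has no line in the count tables, so no count of it can be set beside that of FFAR3. A count this low does not show that a receptor is absent from the cells.

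**Figure D4:**
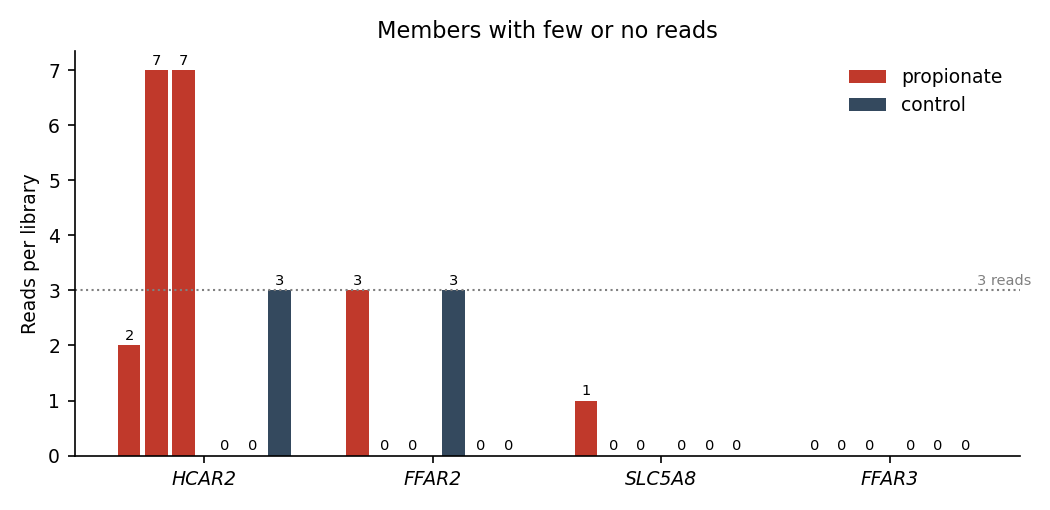
Reads in each library of the 4 members too sparse to test, with propionate libraries 1 to 3 left of control libraries 1 to 3. The dotted line marks 3 reads. HCAR2 reached 7 reads in 2 propionate libraries, and FFAR3 stayed at 0 throughout.

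No other gene of the SLC16 family passed the test, and some partners of these carriers did. Of the other 11 SLC16 genes 6 were tested, with a median log2 fold change of 0.54, and edgeR called 0, as did DESeq2 and limma-voom. At an unadjusted p under 0.05, 2 were higher and 1 was lower. A fit blocked by replicate number called 1, SLC16A14, as lower (log2 fold change -0.41, adjusted p = 0.0209), a gene named after its values were seen. SLC16A14 was also called without control library 2 (adjusted p = 0.0438) and with no filter on low counts (adjusted p = 0.0487). SLC16A13, named likewise, was called as higher without control library 1 (log2 fold change 1.496, adjusted p = 0.0201). SLC16A10, again named after its values were seen, was called as higher with the GC trend removed (log2 fold change 1.18, adjusted p = 0.044). It was also called as higher with the GC trend removed and the block (log2 fold change 1.17, adjusted p = 0.0498). Among 10 genes for other surface partners, cyclophilins that bind basigin and other carriers of these anions, 5 were tested and 2 rose. Over all tested genes 17.2% were called as higher. NPTN, which encodes neuroplastin, a basigin relative that can chaperone MCTs, was at 138.7 ± 5.86 CPM with propionate and 101.5 ± 7.20 CPM in control (mean ± SD, n = 3 each, log2 fold change 0.45, adjusted p = 4e-04). SLC26A6, an anion exchanger gene, was at 49.97 ± 3.06 CPM with propionate and 32.9 ± 1.34 CPM in control (log2 fold change 0.60, adjusted p = 0.000119). EMB, for the embigin chaperone, and the sodium-coupled carrier gene SLC5A12 had no read. With the block the cyclophilin genes PPIA and PPIB were called as lower as well (log2 fold changes -0.13 and -0.29, adjusted p = 0.0133 and 0.00736), but PPIA was not called with the GC trend removed as well (log2 fold change -0.04, adjusted p = 0.439). PPIB was called as lower in that fit too (log2 fold change -0.43, adjusted p = 0.000192), with the GC trend removed without the block (adjusted p = 0.0208), with no filter on low counts (adjusted p = 0.0192) and without control library 1 (adjusted p = 0.0321). Both were named after their values were seen. DESeq2 and limma-voom called 0 of these 10 as lower, and at an unadjusted p under 0.05 edgeR had 1.

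Among 8 further receptors for fatty and hydroxy acids and other metabolites, 5 had reads and only GPR35 had enough for the test. GPR35, whose product responds to the tryptophan metabolite kynurenate, fell to 12.8 ± 1.40 CPM with propionate, against 20.5 ± 4.74 CPM in control (mean ± SD, n = 3 each, log2 fold change -0.68, adjusted p = 0.00313). FFAR1, GPR84 and HCAR1 had no read. Downstream of such receptors, 19 of 26 listed genes of G proteins, adenylyl cyclases, phospholipases C, arrestins and receptor chaperones were tested. Of these, 4 rose and 3 fell, where 17.2% of all tested genes were called as higher and 17% as lower. The median log2 fold change of the 19 listed genes was -0.03. GNAI2 encodes an inhibitory G protein subunit, from the family to which FFAR2, FFAR3 and HCAR2 couple. It was at 139.1 ± 1.48 CPM with propionate and 67.5 ± 4.04 CPM in control (log2 fold change 1.04, adjusted p = 3.88e-08). Its relatives GNAI1 and GNAI3, named after their values were seen, had log2 fold changes of -0.03 and -0.05 (adjusted p = 0.97 and 0.651). ARRB2, for an arrestin that switches receptors off, and GNA11, for a subunit that activates phospholipase C, rose by log2 fold changes of 0.52 (adjusted p = 0.000105) and 0.51 (adjusted p = 0.000189). Falls were found for GNA14, another such subunit, which had 2, 8 and 10 reads with propionate and 17, 42 and 34 in control (log2 fold change -2.27, adjusted p = 0.00159), for PLCB2 (log2 fold change -0.85, adjusted p = 0.00552) and for the cyclase gene ADCY3 (log2 fold change -0.49, adjusted p = 0.00561). The fourth gene that rose, PLCB3, named after its values were seen, lost its call with the GC trend removed (adjusted p = 0.425) and without control library 2 (adjusted p = 0.06). GNAS, for the stimulatory subunit, was called as lower with the block (adjusted p = 0.00611) and without control library 2 (adjusted p = 0.0417). With the GC trend removed GNAS was called as lower too (log2 fold change -0.37, adjusted p = 0.00697). The same held with the block as well (log2 fold change -0.36, adjusted p = 1.9e-05). PLCB1 was called as lower without control library 1 (adjusted p = 0.0424). Both genes were likewise named after their values were seen. ADCY3 acts downstream of olfactory receptors in the nose together with GNAL, which was at 26.0 ± 1.29 CPM with propionate and 22.4 ± 1.20 CPM in control (log2 fold change 0.22, adjusted p = 0.16). GNAL, named after its values were seen, was called as higher with the block and the GC trend removed together (log2 fold change 0.27, adjusted p = 0.0378).

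What the carriers move is handled inside the cell by enzymes and mitochondrial carriers of lactate and pyruvate, and 14 of 15 such listed genes were tested. Of these, 6 rose, where 17.2% of all tested genes were called as higher and 17% as lower. edgeR, DESeq2 and limma-voom called 0 of these genes as lower, as did an unadjusted edgeR p under 0.05. Their median log2 fold change was 0.20. PDK4, a kinase that shuts pyruvate dehydrogenase off, had 38, 89 and 42 reads with propionate and 9, 10 and 11 in control (log2 fold change 2.40, adjusted p = 0.000109). PDP2, a phosphatase with the opposite action, rose by a log2 fold change of 0.40 (adjusted p = 0.00266), and LDHD, which oxidizes D-lactate, by 0.84 (adjusted p = 0.00356). The other genes that rose, PDK2, PDK3 and PDP1, named after their values were seen, each lost the call without at least 1 library, PDP1 without propionate library 2 (adjusted p = 0.0539), PDK3 without propionate library 2, control library 1 or control library 3 (adjusted p from 0.0599 to 0.108), and PDK2 without either of 2 propionate or 2 control libraries (adjusted p from 0.0812 to 0.131). PDK2 also lost it with the GC trend removed (adjusted p = 0.188), and PDK1 and MPC1, likewise named after their values were seen, were called as higher with the GC trend removed and the block (adjusted p = 0.0071 and 0.0346). The main lactate dehydrogenase genes LDHA and LDHB, named after their values were seen, had log2 fold changes of -0.02 and -0.08 (adjusted p = 0.861 and 0.478). Of the genes that balance acid and sodium beside these carriers, the exchanger gene SLC9A2 fell to 17.2 ± 1.39 CPM with propionate, against 27.3 ± 2.30 CPM in control (mean ± SD, n = 3 each, log2 fold change -0.66, adjusted p = 0.000431). CA12, which encodes a surface carbonic anhydrase, was at 150.04 ± 10.5 CPM with propionate and 107.2 ± 10.1 CPM in control (log2 fold change 0.49, adjusted p = 0.000349).

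**Figure D5:**
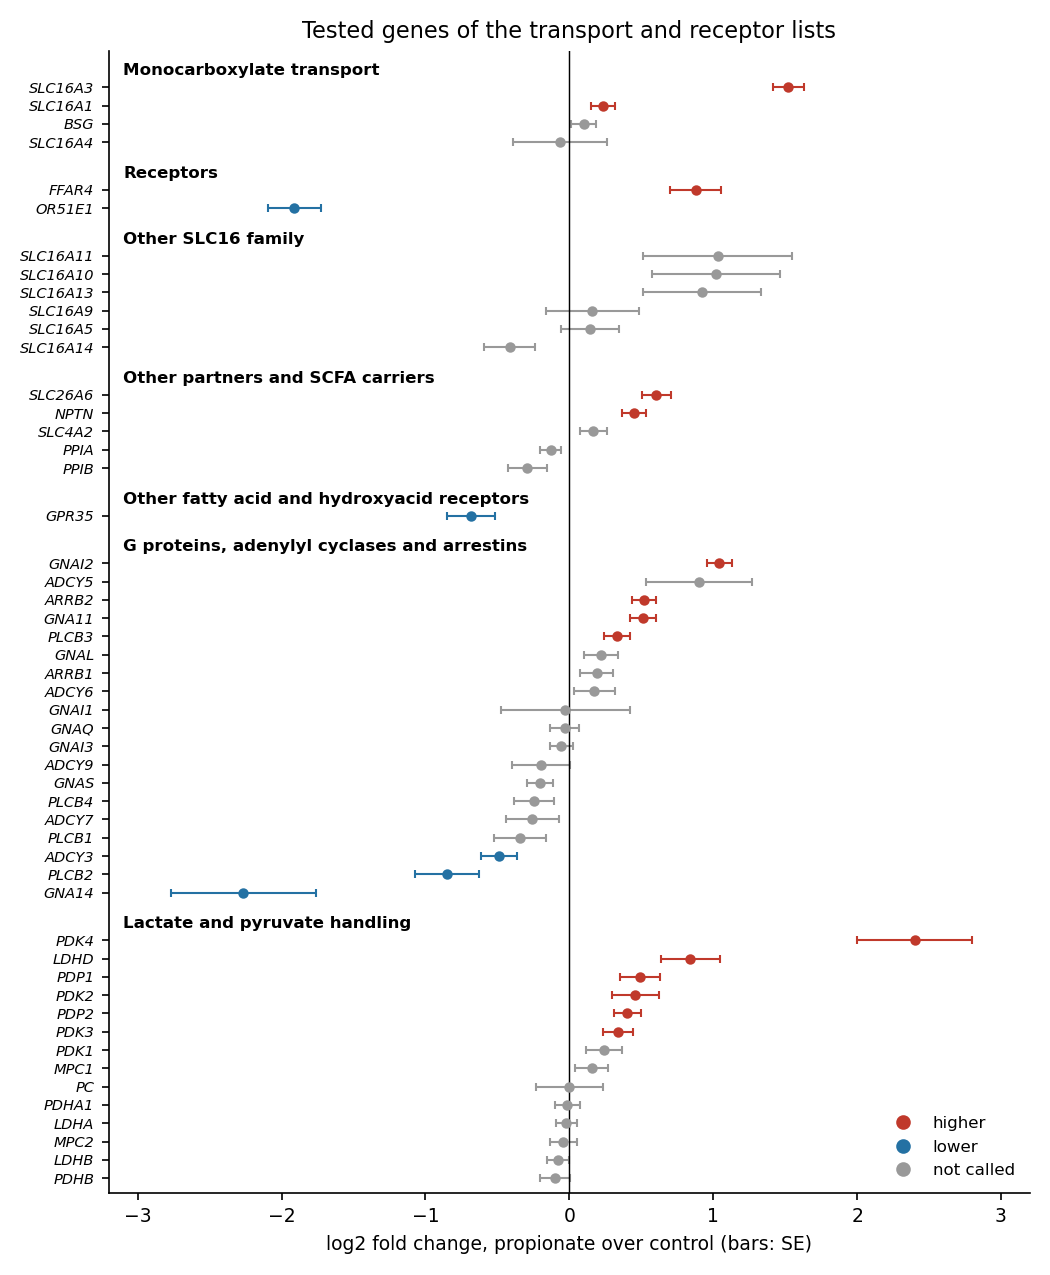
Log2 fold change of propionate over control for each tested gene of the transport, receptor, G protein and lactate lists, with bars for the SE of the fit. Red genes were called higher, blue lower and grey not called. Among called genes SLC16A3 has the largest rise on the transport side and PDK4 the largest in the plot, and OR51E1 and GNA14 the largest falls in the plot.

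The genes whose log2 CPM, centred over the 6 libraries, ran closest to each of 4 members were found by their root-mean-square distance. For SLC16A3 these were TPPP (distance 0.0522 on the log2 scale, Pearson r 0.998), AZIN2 and TOM1L2, and for OR51E1 they were RGMB-AS1 (distance 0.127, r 0.991), N4BP2 and PTPRO. TPM4, MAP1LC3A and CD24 were nearest to SLC16A1, and GTF2E2, USP40 and STRBP to BSG. With 6 libraries in 2 groups such matches are common: 756 of the 13605 tested genes had an r above 0.95 with SLC16A3, and 534 with OR51E1. These r values describe the libraries and carry no test.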

How the data were processed

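RNA was sequenced from 3 propionate and 3 control libraries of LS 174T cells. Groups and replicate numbers came from the sample titles. Per the labels' protocols a Lexogen QuantSeq kit was used. Such kits usually read transcripts near their 3' end, but the catalogue number given was not matched to a kit here, so values for the last 500 bases of transcripts assume such reading. Bowtie2, edgeR, hg19 and GRCh37 are listed, per the submitters' processing notes, with no role or version. The read counter, its annotation and its strand setting were not found in the labels.

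What the authors deposited were unnormalized read counts by gene symbol in a separate table of 25737 lines for each library. Counts of the 286 repeated symbols were summed; no member was repeated, and no line lacked a gene name. The test was that of edgeR 4.0.16 in R 4.3.3, with TMM factors, filterByExpr (minimum count 10), quasi-likelihood F test without covariate, both directions. CPM values use the TMM factors, fold changes a prior count of 0.125, and 95% intervals of log2 fold changes the SE and degrees of freedom of the fit. Whether reads were independent molecules is not stated, so counting intervals cover counting error only.

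The members, lists and tests were chosen with earlier results of these data known. Text names every member, up to 3 called genes per direction of each list, and near-identical copies of members. Some genes of the list on acid and sodium balance, and the counts over it, are not reported here. Libraries of a group differed beyond sampling noise (chi-square per degree of freedom 6.01 to 8.85). Same-number libraries deviated together from their group means (r = 0.244, 0.400 and 0.446 over 9286 genes above 10 CPM). The main test did not pair them, and the replicate number was a block only in alternative fits. Any pairing rests on the data alone, and shared days are not in the labels.

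Alternatives were other scaling (RLE, upper quartile, totals), limma-voom (limma 3.58.1) and DESeq2 1.42.0, other filters and thresholds, first lines of symbols, the replicate block, removal of each library's GC trend and leaving out each library. The GC trend was a spline with 4 degrees of freedom on transcript GC content in GENCODE release 29, known for 93.5% of tested genes. Simulated data with known changes were used to check the test. Promoter windows came from RefSeq (GRCh38.p14), for 7 of the 10 members.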

Additional observations from a re-analysis of the deposited data

How the results depend on the processing

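The number of members called was 4 (3 higher, 1 lower) under every other scaling, filter, test, symbol and GC setting, and with the replicate block, which changed no call among them. It was between 3 and 4 when a library was left out, and 3 at an adjusted p under 0.01 or with at least a 1.5-fold change as well; the member that dropped out was SLC16A1. When the block and the GC correction were combined, the log2 fold change of SLC16A1 was 0.35, and that of SLC16A3 was 1.29. Members that were never called changed sign: with the GC trend removed, SLC16A4 stood at 0.07 without and 0.07 with the block (0.0739 and 0.0684), and BSG at -0.132 without and with the block (-0.1316 and -0.1324), and SLC16A4 at 0.0543 without propionate replicate 2 (-0.210 to 0.0543 over the 6 libraries left out in turn). The cause was not tested. Without a library, the log2 difference in the ratio of SLC16A3 to SLC16A1 was between 1.24 and 1.33 and that of SLC16A3 to BSG between 1.33 and 1.58. Paired by number, both ratios were higher with propionate in 3 of 3 pairs (mean differences 1.29 and 1.43, exact sign-flip p = 0.25, the smallest that 3 pairs allow). The called genes named by rule from the other lists kept their direction and call under all 17 alternatives. Counts for those lists under each alternative were added after the data were seen. No scaling moved the median of all genes by more than 0.0249 on the log2 scale. Depth limits SLC16A4, SLC5A8, FFAR2, FFAR3 and HCAR2.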
